A study of Homo sapiens and Mus musculus with 20 samples.

Results

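ATAC-seq in MCF10A cells expressing Satb1 listed 206170 accessible regions, and 61371 of them, 29.8%, overlapped no region of the list from native MCF10A cells by even 1 bp. These gained regions are described here. They were chosen by comparing the 2 ATAC-seq lists. Their number, width, ATAC-seq enrichment and distance to native regions therefore follow from the choice and are given as a description only. Of the other regions in the same list, 144799 were shared with native cells. In the opposite direction, 19674 of 175989 native regions, 11.2%, overlapped no region of the Satb1 list. Sequence, gene annotation and ChIP-seq were not used in the choice.

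The study holds 20 samples, of which 7 peak lists from MCF10A were used, namely 2 of ATAC-seq and 5 of ChIP-seq. MCF10A is a human mammary gland epithelial cell line that lacks native Satb1. The native group carried no construct named in the labels, whereas the other cells expressed Satb1. In the study's methods Satb1 and its shortened forms were eGFP fusions at the C terminus, carried by a stably integrated lentiviral vector with a cumate switch promoter that was leaky without cumate, in cells sorted by fluorescence. The ATAC-seq labels do not say whether cumate was added. ChIP-seq with a GFP antibody gave lists for full-length Satb1, for Satb1 without its homeodomain (∆HD), for N-C1, which keeps the N terminus and the first CUT domain, and for full-length Satb1 after 2 h of camptothecin or ICRF-193. The study's methods state duplicates, but 1 list per condition was used, so the spread between replicates could not be taken from these lists and differences carry no p-value. Vector, sorting and Satb1 itself cannot be told apart in the comparison of the 2 ATAC-seq lists. Intervals on shares are exact 95% Clopper-Pearson intervals and cover counting error only. Neighbouring regions are not independent.

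Satb1 is a chromatin organizer best known from thymocytes, where it binds A/T-rich DNA through CUT domains and a homeodomain. ATAC-seq uses the Tn5 transposase, which inserts adapters where DNA is not covered by nucleosomes or other proteins, so accessible regions are mostly promoters and enhancers. In epithelial cells many enhancers carry sites of AP-1, the dimers of FOS and JUN family proteins, and of TEAD and RUNX factors. Camptothecin inhibits topoisomerase I and ICRF-193 inhibits topoisomerase II.

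The sequences below were chosen because they show the contrast between DNA at Satb1 summits and DNA in gained regions with a large fold enrichment. All are from the plus strand of hg19, 200 bp each. The first set was centered on the summits of 2 of the strongest full-length Satb1 peaks that a gained region touched, with matches to YTAWTAR, a short A/T-rich word used here as the Satb1 consensus, in capitals (Y stands for C or T, R for A or G and W for A or T). They had 80.5% and 85.5% A/T and held 7 and 9 matches.
Intergenic Satb1 summit, chr9:92983123-92983322: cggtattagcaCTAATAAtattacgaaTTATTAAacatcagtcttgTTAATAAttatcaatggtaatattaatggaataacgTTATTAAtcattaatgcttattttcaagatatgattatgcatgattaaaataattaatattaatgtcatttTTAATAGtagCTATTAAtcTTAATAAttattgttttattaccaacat
Satb1 summit near BMF, chr15:40422579-40422778: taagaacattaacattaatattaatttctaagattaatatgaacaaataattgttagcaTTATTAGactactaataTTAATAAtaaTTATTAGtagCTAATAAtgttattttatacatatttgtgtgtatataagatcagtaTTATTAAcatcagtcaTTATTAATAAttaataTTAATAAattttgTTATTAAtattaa

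The second set was centered on the midpoints of gained regions with a large ATAC-seq fold enrichment, with matches to the AP-1 motif TGANTCA in capitals. They had 47.0% and 56.0% A/T, and the first held 1 match.
Gained region at the MFSD1 promoter, chr3:158526560-158526759: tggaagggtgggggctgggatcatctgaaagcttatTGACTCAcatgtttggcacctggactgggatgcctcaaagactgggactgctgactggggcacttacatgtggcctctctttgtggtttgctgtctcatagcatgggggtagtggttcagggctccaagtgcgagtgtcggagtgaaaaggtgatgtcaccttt
Intergenic gained region, chr5:13537102-13537301: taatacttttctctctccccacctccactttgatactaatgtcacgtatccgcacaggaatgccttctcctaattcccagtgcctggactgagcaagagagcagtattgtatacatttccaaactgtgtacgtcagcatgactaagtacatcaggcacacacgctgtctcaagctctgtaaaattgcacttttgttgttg

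The gained regions were narrow and weak. Their median width was 404 bp (quartiles 268 and 813 bp), against 749 bp for shared regions and 287 bp for native regions absent from the Satb1 list. They made up 29.8% of the regions of their list and 15.7% of its length, 40.1 Mb. The median fold enrichment, the ratio of the read pileup to the local background, was 2.03 for gained and 4.08 for shared regions. The median −log10 q was 2.24 for gained and 17.2 for shared regions. The 2 lists did not reach down equally far, since the smallest fold enrichment was 1.77 in the Satb1 list and 2.14 in the native list. Of the gained regions, 39525, or 64.4%, had a fold enrichment below that native minimum, against 8.85% of the shared regions. The read depth of either library is unknown, and the part of depth in the number of gained regions was not tested. A fold enrichment of at least 3 was reached by 2350 gained regions, 3.83%, and by 67.7% of the shared regions. At least 4 was reached by 343 gained regions and at least 5 by 74.

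**Figure D1:**
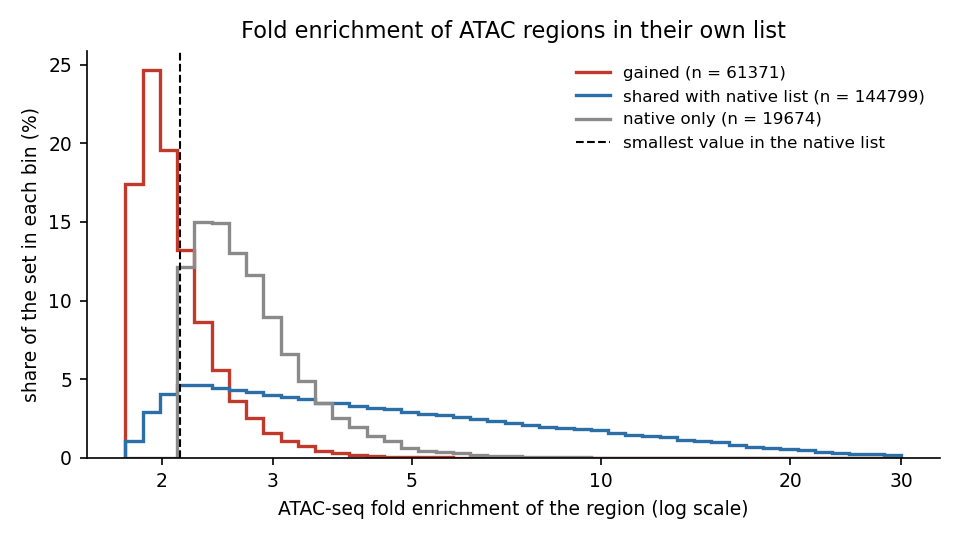
Fold enrichment of each ATAC-seq region in its own list (x axis, log scale, drawn up to 30) against the share of the set in each bin (y axis, percent), for gained, shared and native-only regions. The dashed line marks 2.14, the smallest value in the native list, and 64.4% of the gained regions lie to its left.

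Gained regions lay within 10000 bp of a native region more often, and within 1000 bp less often, than placements that touch no native region. The shares were 80.4% (80.1 to 80.8) against 61.7% and 7.83% (7.62 to 8.04) against 12.9%. The rule itself used the native list, so these distances are tied to the choice and are a description only. The median gap to the nearest native region was 3645 bp (quartiles 1783 and 7977 bp). Of the gained regions, 4804 lay within 1000 bp, 44565 lay farther but within 10000 bp, 11731 lay farther still but within 100000 bp, and 271 lay beyond that. At the border of the rule, 6 gained regions abutted a native region with no base between them (median fold enrichment 1.90), and 6 regions were left out for sharing 1 base (median 1.96).

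The gained regions with the largest fold enrichment lay outside promoters, and of all gained regions 1.76% were at promoters. The 5 strongest had fold enrichments between 7.99 and 10.7. The region chr4:54732159-54732829 had 9.66 and lay in an intron of a locus listed as ENSG00000282278, 165 kb from the nearest start, that of LNX1, which encodes a ubiquitin ligase. The region chr12:51324225-51324700 had 8.97 and lay on an exon of METTL7A, a methyltransferase gene. At chr5:13536987-13537416 the value was 8.08, 408 kb from DNAH5, an axonemal dynein gene. The weakest of the 5, chr8:54426487-54427448, had 7.99 and lay 263 kb from OPRK1, the kappa opioid receptor gene. Of these 5 regions, 4 held an AP-1 match within the region, against 30.1% of all gained regions. A peak of any of the 5 ChIP-seq lists was overlapped by 0 of them, and 60777 of all 61371 gained regions overlapped none either. Of the 5, 2 also held words typical of Alu repeats, where read placement can be ambiguous, and the region on METTL7A was one of them.

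The widest gained regions had a different shape. All 5 had a fold enrichment between 2.05 and 2.27 and a width between 11581 and 23568 bp, and 3 of them lay on chromosome 8 between 142669294 and 143230793. The other 2 were chr7:56882635-56895470, 319 kb from the start of ZNF479, and chr3:12966316-12977896, in an intron of IQSEC1, an exchange factor for ARF GTPases. Their A/T content at the midpoint was between 30.5% and 46.5%.

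The share of gained regions at promoters was near that of all possible positions, or above it under other definitions. A promoter was taken as 1000 bp upstream to 100 bp downstream of a protein-coding transcription start, read at the midpoint of the region. Of the gained regions, 1081, or 1.76% (1.66 to 1.87), were at promoters, against 1.70% for all possible positions on the same chromosomes. It was 2.28% (2.18 to 2.38) against 1.73% when regions under 50% covered by the native list also counted as gained, and 6.38% (6.18 to 6.57) against 5.0% for starts of transcripts of every type. Among shared regions the share was 5.69% (5.58 to 5.81), and among native-only regions 1.52% (1.35 to 1.70). Introns held 46.1% of the gained regions (45.7 to 46.4), against 41.7% of positions. Exons outside promoters held 4.74% (4.57 to 4.91), against 2.88% of positions, and intergenic DNA held 47.5% (47.1 to 47.8), against 53.7%. The median distance to the nearest protein-coding start was 27.6 kb for gained, 28.4 kb for shared and 45.0 kb for native-only regions.

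The strongest gained promoter regions belonged to genes of unrelated roles. At ZNF630, a zinc finger gene, the region chrX:47930789-47931467 had a fold enrichment of 4.57 and lay 11.2 kb from any native region. At SLCO4A1, an organic anion transporter gene, chr20:61286878-61288382 had 4.46. At MFSD1, a lysosomal transporter gene, chr3:158526467-158526852 had 4.28. The regions at ARMH1, chr1:45154782-45155255, and at PRKACA, chr19:14218754-14219064, the gene of a catalytic subunit of protein kinase A, had 3.89 and 3.80. Genes were counted by overlap of any part of a region with a promoter, not by the midpoint used above. Of 20090 protein-coding genes, 15213 had a native region at a promoter and 1565 had a gained region at one. In 604 genes, or 3.01%, a gained region was at a promoter and no native region at any.

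The gained regions were poor in A/T, although Satb1 binds A/T-rich DNA. Over 200 bp at the midpoint they held 50.4% A/T (SD 8.38 across 61351 regions with sequenced bases), against 52.3% (SD 9.90) for shared regions, 56.0% (SD 8.16) for native-only regions and 58.5% for the genome, weighted by chromosome. Of the gained regions, 47.8% were below 50% A/T, against 36% of the shared and 22.1% of the native-only regions. The differences between the sets were smaller than the SD across regions. The ratio of observed to expected CpG was 0.222 in gained, 0.295 in shared and 0.190 in native-only regions.

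The Satb1 consensus was rarer in gained regions than in the genome. At least 1 match in 400 bp at the midpoint was found in 7357 gained regions, 12.0% (11.7 to 12.2), against 25% of all 400 bp windows on the same chromosomes. Among shared regions the share was 16.6% (16.4 to 16.8), and among native-only regions 22.1% (21.5 to 22.7). A single match was the rule, with 6438 gained regions holding 1 match, 790 holding 2, 104 holding 3 and 25 holding 4 or more. The consensus reached 0.299 matches per kb (0.289 to 0.309) in the central 200 bp of gained regions, against 0.789 per kb in the genome.

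Among the other motifs, that of AP-1 was the most raised over the genome in the central 200 bp, though not over whole regions. Motifs were searched on both strands, each start counted once. TGANTCA reached 0.936 matches per kb (0.919 to 0.954) in the central 200 bp of gained regions, 2.81 times the genome's 0.333. Over whole gained regions it was at 1.65 times the genome, below CACGTG at 1.91, GGGCGG at 1.84 and CCGGAA at 1.72 times. In shared regions it reached 1.27 per kb (1.26 to 1.29), 3.81 times the genome, and in native-only regions 0.904 (0.875 to 0.933). In 400 bp, 23.6% of the gained regions held it, against 12.1% of all such windows. The E-box CACGTG, bound by MYC and related factors, reached 1.63 times its genome density, CCGGAA of ETS factors 1.5 times, GGGCGG of SP and KLF factors 1.47 times, CATTCC of TEAD factors 1.24 times and TGTGGT of RUNX factors 1.22 times. For GGGCGG, common in promoters, the ratio in shared regions was 2.79. CG reached 1.31 times its genome density in gained and 1.67 times in shared regions. Below the genome were CCAAT of NF-Y at 0.791, AGATAA of GATA factors at 0.528, TAATTA of homeodomain factors at 0.353 and ATATAT at 0.349 times, with TGTTTAC of forkhead factors at 0.953.

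**Figure D2:**
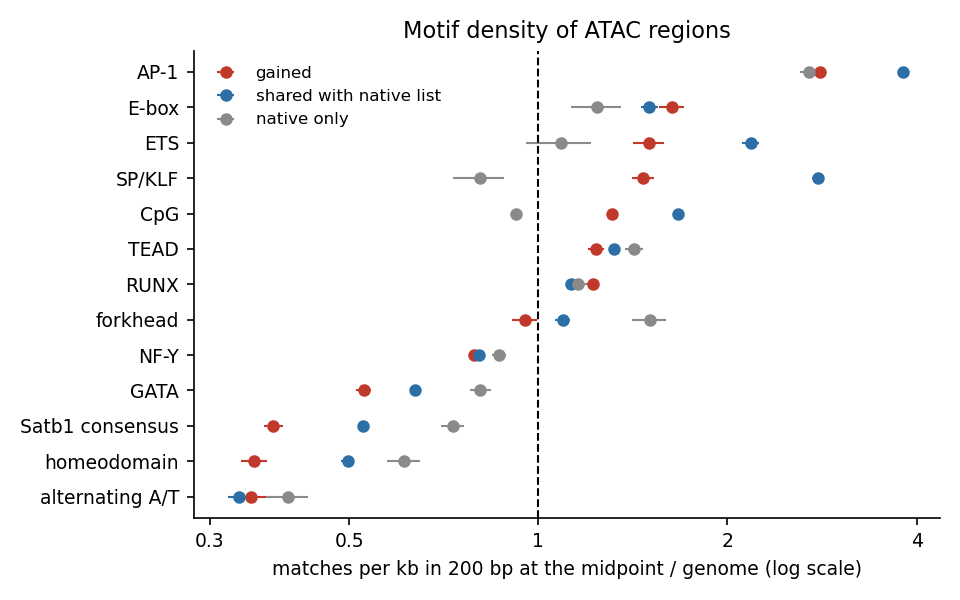
Matches per kb in 200 bp at the region midpoint divided by the density in the genome (x axis, log scale) for 13 motifs (y axis), in gained, shared and native-only regions. Bars are 95% intervals across regions and the dashed line marks the genome, with AP-1 at 2.81 and the Satb1 consensus at 0.379 in gained regions.

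The AP-1 motif was denser in the central 200 bp of strong than of weak gained regions, which also differed in width. Below a fold enrichment of 2, the 27339 gained regions held 0.413 matches per kb (0.396 to 0.430), somewhat above the genome's 0.333. The density was 1.05 per kb from 2 to 2.5, 2.2 from 2.5 to 3 and 2.83 (2.69 to 2.97) from 3 to 4. At 4 or more it was 3.03 (2.69 to 3.38), and the intervals of the last pair of classes overlapped. Shared regions of the same classes went from 0.512 (0.472 to 0.552) to 1.42 (1.40 to 1.44) per kb. Fold enrichment was part of the choice of regions, but the sequence was not. The median width of gained regions was 544 bp below 2, 339 bp from 2 to 2.5 and 316 bp from 2.5 to 3. Width was not taken into account.

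At a fold enrichment of at least 3, 1168 of the 2350 gained regions, 49.7% (47.7 to 51.7), held TGANTCA in the central 200 bp. The share was 24.7% (24.4 to 25) of 98021 shared regions and 21.2% (20.1 to 22.3) of 5537 native-only regions above the same limit. The density was 8.49 times that of the genome in these gained regions, 4.24 times in shared and 3.37 times in native-only ones. From 3 to 4 the median width was 357 bp in gained and 502 bp in shared regions. At 4 or more it was 420 and 998 bp. A central window covers less of a wide region, and width was not taken into account. CATTCC of TEAD factors was at 1.94 times the genome in the strong gained regions, with 1.33 in shared and 1.68 in native-only ones. GGGCGG, by contrast, was at 0.952 times the genome in strong gained regions and at 3.42 times in shared ones. The Satb1 consensus was at 0.297 times the genome there and at 0.379 times over all gained regions.

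Because 2 of the strongest regions held Alu sequence, the words GTAATCCCA and CCTCAGCCT, both common in Alu repeats, were counted after these regions had been seen. Either word stood in 400 bp of 14.4% of the gained regions (14.1 to 14.7), against 16.2% of all such windows and 10.7% of the shared regions. Without the regions that held one, the AP-1 density was 0.415 per kb below a fold enrichment of 2 and 3.07 (2.69 to 3.45) at 4 or more. The increase with fold enrichment was as large without Alu-bearing regions.

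Promoters and base composition moved differently with strength. The promoter share of gained regions was 1.99% (1.83 to 2.16) below a fold enrichment of 2 and 1.10% (0.688 to 1.65) from 3 to 4, and 0.875% (0.181 to 2.53) at 4 or more. In shared regions it was between 2.19% and 2.5% in each class below 4 and 8.92% (8.72 to 9.13) at 4 or more. A/T content was 49.1% (SD 8.41) in the weakest gained class and 53.9% (SD 6.67) from 3 to 4, which differed by less than the SD from the 54.1% (SD 8.81) of shared regions in that class. The consensus was found in 10.4% of gained regions below 2 and in 15.4% from 3 to 4.

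**Figure D3:**
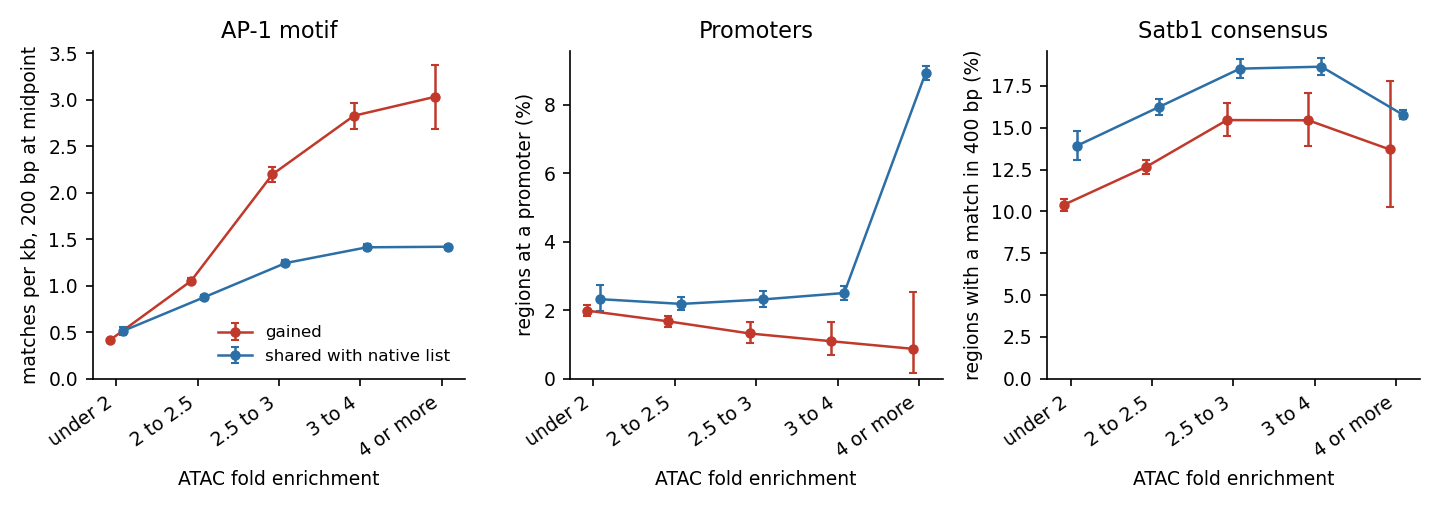
AP-1 matches per kb (left), share of regions at promoters (middle) and share with a Satb1 consensus match (right) on the y axes, by class of ATAC-seq fold enrichment on the x axes, for gained and shared regions, with 95% intervals. The AP-1 density of gained regions goes from 0.413 to 3.03 per kb, that of shared regions from 0.512 to 1.42.

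Gained regions were seldom at sites of Satb1 binding. Of the 61371 gained regions, 200 overlapped a full-length Satb1 peak, 0.326% (0.282 to 0.374). Placing intervals of the same widths at every position of the same chromosomes gave 0.795%, so the measured share was 0.410 of it. Shared regions, which were wider, overlapped at 0.548% (0.511 to 0.588) against 1.40% for placements, a ratio of 0.393. The ratio intervals, 0.355 to 0.471 for gained and 0.366 to 0.421 for shared regions, overlapped. For native-only regions the ratio was 0.517 (0.395 to 0.665). By strength, 78 gained regions below a fold enrichment of 2 overlapped a full-length peak, 0.285% (0.226 to 0.356). Among the 343 with at least 4, 0 did, for which the exact interval reaches 1.07% and 3 counts would be 0.875%, so a share equal to that of placements, 0.680%, could not be told apart at this number.

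Overlap was below placements for the other 4 ChIP-seq lists as well. The ∆HD list was met by 475 gained regions, 0.774% (0.706 to 0.847) against 1.92% for placements, and the N-C1 list by 386, 0.629% (0.568 to 0.695) against 2.17%. For N-C1 the ratio was 0.290 (0.262 to 0.321) in gained and 0.411 (0.394 to 0.429) in shared regions, and these intervals did not overlap. For ∆HD the ratios were 0.403 (0.368 to 0.441) and 0.473 (0.453 to 0.493), and these did not overlap either. After camptothecin 169 gained regions overlapped, 0.275% (0.235 to 0.320) against 0.876%, and after ICRF-193 225, 0.367% (0.320 to 0.418) against 1.34%. The ratios were 0.314 (0.269 to 0.365) in gained and 0.353 (0.329 to 0.379) in shared regions for camptothecin, which overlapped, and 0.273 (0.239 to 0.311) and 0.353 (0.333 to 0.374) for ICRF-193, which did not. The 5 lists differ in length, so their counts are not measures of binding. In all, 60777 gained regions overlapped no peak of any list, 252 overlapped peaks of 1 list and 122 peaks of all 5.

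**Figure D4:**
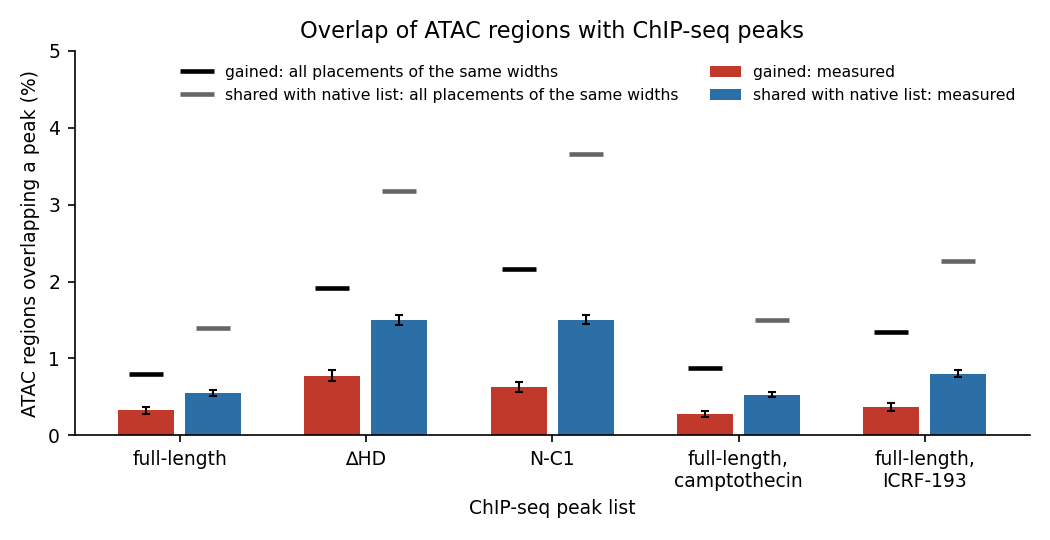
Share of ATAC-seq regions that overlap a peak (y axis, percent) for each of the 5 ChIP-seq lists (x axis), with exact 95% intervals, for gained and shared regions. Horizontal marks give the share over all placements of the same widths, which lies above the bar in each of the 10 cases.

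Seen from the ChIP-seq side, 0.879% (0.762 to 1.01) of the 22877 full-length peaks touched a gained region, and 864, 3.78%, touched a shared one. Peaks touching a gained region had a median ChIP-seq fold enrichment of 9.11, against 7.28 for the other peaks. For peaks touching a shared region it was 7.38, against 7.32 for the others. Peak width was not taken into account. By distance, 10.0% of the gained regions (9.81 to 10.3) lay within 10000 bp of a full-length peak, against 14.5% of placements.

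The 200 gained regions at full-length peaks differed in sequence from the rest. Their midpoints had 59.2% A/T (SD 8.4), against 50.3% (SD 8.36) for the other gained regions, and 103 of them, 51.5% (44.3 to 58.6), held the consensus in 400 bp, against 11.9% (11.6 to 12.1). The 200 were picked by overlap with Satb1 peaks, which are A/T-rich, so a difference in this direction follows from the pick. At full-length peaks, midpoints of shared and native-only regions had 57.4% (SD 9.99) and 62.7% (SD 6.93) A/T. Of the 200, 139 were intergenic, 56 intronic and 1 at a promoter. Most of them overlapped only a part of the peak. The overlap with the strongest peak was 182 bp at the median (quartiles 76 and 272 bp), which was 30.5% of the peak, against 69.3% for shared regions. The summit of that peak lay inside the gained region in 81 cases, 40.5% (33.6 to 47.7), against 56.4% (52.9 to 59.9) for shared regions. DNA at these summits had 71.5% A/T (SD 7.22), more than the midpoints of the gained regions beside them. Shared regions were wider, and width was not taken into account in the comparisons with them. Whether gained regions favored peak edges was not tested.

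The examples at the strongest ChIP-seq peaks had the accessible region beside the motif cluster shown above. At the peak chr9:92982731-92983852, with a ChIP-seq fold enrichment of 56.0 and 14 consensus matches, the gained region chr9:92982051-92982891 ended 332 bp before the summit and held 2 matches. Near BMF, an apoptosis regulator gene, the peak chr15:40422099-40423485, at 55.3 with 27 matches, was touched by gained regions on both sides, chr15:40421398-40422392 and chr15:40423297-40423700. They held 1 match and 0 matches, and their own ATAC-seq fold enrichments were 2.21 and 2.27. Such peaks, with gained regions on both sides of the summit, numbered 5. The gained region chr8:11771141-11772469, 44.8 kb from the start of CTSB, the cathepsin B gene, touched a peak of 55.3 over 42 bp. The ATAC-seq fold enrichment was 1.90 in the chr9 region and 1.94 in the chr8 region, both below the native minimum of 2.14.

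The gained share of the accessible regions varied along the genome. It was largest on chromosome 22 at 37% (35.5 to 38.5), chromosome 1 at 36.6% (36 to 37.2) and chromosome 8 at 34.4% (33.5 to 35.3). It was smallest on chromosome 4 at 23.2% (22.3 to 24.0), chromosome 6 at 23.2% (22.4 to 24.0) and chromosome X at 23.8% (22.7 to 24.9). On chromosome 1 the arms differed, with 40.5% (39.7 to 41.3) on 1q and 31.3% (30.4 to 32.2) on 1p. On chromosome 8 they had 36.2% (35.1 to 37.3) on 8q and 29.9% (28.3 to 31.5) on 8p. The smallest share was on 4q, 19.6% (18.6 to 20.6). The median fold enrichment over all regions of the arm was 2.31 on 1q and 3.47 on 4q, and 25.5% and 6.94% of the regions there were below 2. Copy number of these arms in either culture was not measured here.

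**Figure D5:**
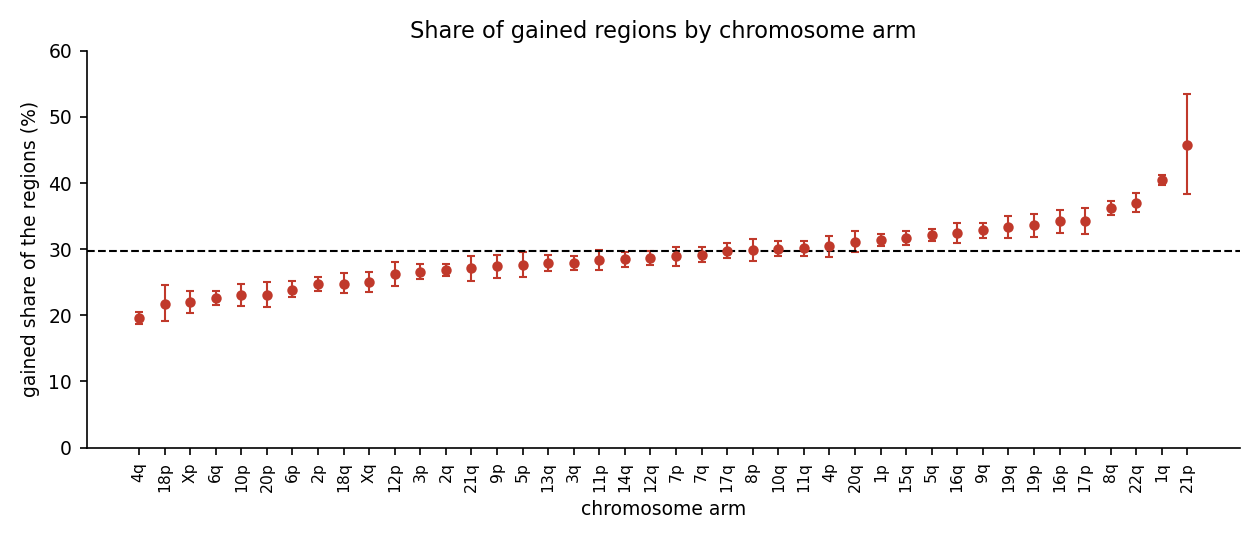
Share of the ATAC-seq regions of the Satb1 list that are gained (y axis, percent, exact 95% intervals) for each chromosome arm with at least 100 regions (x axis). The dashed line is the share over the whole list, and the arms run from 19.6% on 4q to 40.5% on 1q and 45.8% on the short 21p.

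In 305 windows of 10 Mb with at least 100 regions, the gained share ran from 12.1% to 49.7%, with a median of 26.8%. The 5 highest windows were chr10:130000001-135534747 at 49.7%, chr1:210000001-220000000 at 49.6%, chr4:190000001-191154276 at 48.5%, chr8:140000001-146364022 at 48.2% and chr8:130000001-140000000 at 47.7%. Of these 5, 3 run to the end of the chromosome sequence. At a smaller scale, 25753 gained regions, 42.0%, had no other gained region within 10 kb. The largest runs of gained regions, with neighbours within 10 kb, had 25 members each. They lay at chr1:144150520-144221389, on NBPF8, at chr1:148250717-148337244, on NBPF20, and at chr5:1050673-1157761, on SLC12A7, a potassium chloride cotransporter gene. The NBPF genes are a family of near-identical copies, so the place of reads there is uncertain.

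Of 20090 protein-coding genes, 10421 had a gained region in the gene body. The genes with the most were long. TRAPPC9, a subunit of a vesicle tethering complex, had 88, PTPRN2, a phosphatase-like protein of secretory granules, 74, SMYD3, a methyltransferase, 71, KIF26B, a kinesin family member, 70, and CAMTA1, a transcription activator, 69. Among others, GSE1 and SORCS2 had 56 each, SLIT3, a guidance ligand, 52, and a locus listed as ENSG00000286192 had 50. Among them, KIF26B and SMYD3 lie on 1q and TRAPPC9 on 8q.

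Among 3659 genes of at least 100 kb, whose median was 1.46 gained regions per 100 kb, the densest was GRM4, a glutamate receptor gene, with 18.3 per 100 kb. Other dense genes were ZHX2 with 17.6, VAV2, a guanine nucleotide exchange factor, with 16.9, MCF2L with 15.6 and KCNAB2 with 15.4. COL27A1, a fibrillar collagen gene, had 15.3, NECTIN1, a cell adhesion gene, 15.1, FAM78B 14.6 and NUP210, a nuclear pore gene, 14.4. In VAV2 and NUP210, gained regions were 75% of the accessible regions of the body.

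Gained regions were set against 9 gene lists, in the gene body and 5 kb on either side. A region counted at a gene's promoter when any part of the region overlapped it. Over all protein-coding genes there were 2.66 gained regions per 100 kb, and 29.5% (29.3 to 29.8) of the regions there were gained. As a check of the cells' label, 10 of 10 basal mammary marker genes, such as KRT5, KRT14 and TP63, had a native region at a promoter, 5 of 11 markers of other lineages had one, as did 75.7% of all protein-coding genes, with ALB and MS4A1 among those having none.

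For the 30 T cell and thymocyte genes, the setting in which Satb1 normally acts, there were 72 gained regions, 4.55 per 100 kb, and 40.9% of their regions were gained (33.6 to 48.6), above the share over all genes. CD247, the CD3 zeta chain gene, had 14 gained beside 12 shared regions, and ZAP70, a kinase of the T cell receptor, 6 beside 6. In this list 21 of the 30 genes had a gained region, and CD3E, CD3G, RAG1, RAG2, ZBTB7B, IL2, IL13, IL7R and CD2 had 0. At 4 of the 30 genes a promoter had a gained region and no native one, against 3.01% of all genes. Of the 30 genes, 16 had a native promoter region, against 75.7% of all genes. The 4 genes with a gained but no native promoter region were CD4 (fold enrichment 2.43), ZAP70 (1.96), PTCRA (1.90) and FOXP3 (1.83). Of these 4 values, 3 were below the native minimum of 2.14. PTCRA is the pre-T cell receptor chain gene and FOXP3 that of the factor of regulatory T cells.

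For the 23 chromatin architecture genes 37.9% of the regions were gained (32.3 to 43.7), with 23 in CUX1, a CUT homeobox gene, 16 in STAG1, a cohesin subunit gene, and 13 in HMGA2, an A/T hook protein gene. Of the 23 genes, 0 had a gained region at a promoter, against 7.79% of all genes, which at this number of genes is not a detectable difference. For the 28 genes of epithelial to mesenchymal transition the gained share was 27.3% (21.5 to 33.7), with 10 gained regions at TGFB2 and 7 at TGFB1, both TGF-beta ligands, 4 at CDH1 and 0 at VIM. MMP9, a matrix protease gene, had a gained promoter region (2.12) and no native one. For 20 basal mammary identity genes it was 27.0% (21.7 to 32.8), with 16 at MYLK and 14 at EGFR. For 20 luminal genes it was 26.2% (19.3 to 34.2), with gained promoter regions and no native one at TFF1 (2.87) and TFF3 (1.92), the trefoil factor genes.

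For 19 matched genes tied to Satb1 in breast cancer cells the gained share was 24.1% (19.0 to 29.8), with 12 gained regions at ABL1, 5 beside 73 shared ones at NRG1, and 0 at LMNA and S100A4. For 15 AP-1 family genes it was 23.1% (12.5 to 36.8), with 0 gained regions at FOS, FOSL1, JUN and JUNB. For 18 housekeeping genes it was 31.6% (22.6 to 41.8). The 31 matched giant synaptic and adhesion genes had 0.525 gained regions per 100 kb, and 23.1% of their regions were gained (20.5 to 25.7). The 9 intervals are not adjusted for the number of lists, some genes are in more than 1 list, and genes named from the lists were chosen after their values were seen. The lists lie on different chromosomes, and the gained share of those chromosomes was not taken into account.

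The SATB1 gene itself, chr3:18386869-18487113, held 0 gained regions. It had 4 shared and 5 native regions, and the 4 had fold enrichments of at most 4.37. Of the 4, 2 touched an exon.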

How the data were processed

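Peak lists of 7 MCF10A samples were used. The authors trimmed reads with cutadapt, aligned them to hg19 and called peaks with MACS2, for ChIP-seq against input DNA after bowtie2 and for ATAC-seq as broad peaks. The deposited fold enrichment is the authors' ratio of pileup to local background, and the deposited −log10 p and −log10 q values and the deposited score are those of MACS2. The score was not used. Depth and pooling of duplicates were not given in the sources used here for the ATAC-seq lists.

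Overlap meant at least 1 bp. In place of drawn random intervals, the share over every placement of the same widths on the same chromosomes was computed exactly. Gene features came from GENCODE release 44 lifted to GRCh37, and sequence from GRCh37. Regions, genes, motifs and lists were chosen with earlier results of these data known, with the named items taken by the largest fold enrichment, width, ChIP-seq fold enrichment, number or density. Classes of fold enrichment, chromosome arms, summit distances, Alu words, motif densities over whole regions and placements for gaps were added after the data were seen. Human chromosome Y was left out of the tables by chromosome, the mouse lists were not used here, and a few named items that the rule would give are not reported here. Functions were checked on 3000 simulated intervals, with 0 errors. Sequence was read with samtools 1.23.1 and pysam 0.24.0, and values were computed in Python 3.11.15 with pandas 2.3.3, scipy 1.17.1 and numpy 2.4.6 and drawn with matplotlib 3.10.9.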

Additional observations from a re-analysis of the deposited data

How the results depend on the processing

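Of 26 alternative values, 7 stayed within 1.5 times the count or within the 95% interval of the value reported and 19 did not. When only regions with −log10 q ≥ 5 were kept in both ATAC-seq lists, 20322 regions counted as gained, 6642 of which were gained against the full native list, with a promoter share of 1.6%, 53.6% A/T, a consensus in 15.9% and a full-length Satb1 peak in 0.477% (placements 0.866%). With regions counted as gained when under 50% of their length was covered by the native list, 87145 were gained, with shares of 2.28% at promoters (positions 1.73%), 12.4% with a consensus and 0.428% with a full-length peak. At least 1000 bp from any native region lay 56583, with 50.5% A/T. The promoter share was 5.87% (positions 5.19%) for 2000 bp on either side of a start and 6.38% (5.0%) for transcripts of every type. Over whole regions A/T was 50.3% and the consensus share 14.5%, and CTAATAR stood in 5.02% (windows 9.74%). The overlap with full-length Satb1 was 0.134% when a summit had to lie inside and 0.274% for peaks with a fold enrichment of at least 5, and with the ∆HD, N-C1 and camptothecin lists in its place 0.774%, 0.629% and 0.275%. Under every alternative with a placement value, the overlap and the consensus share stayed below placements and the A/T content below the genome. With 1 list per condition, replicate error could not be estimated, and absence from a list does not show closed chromatin.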

Other observations

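Gained regions far from native accessible chromatin differed from those beside it. The 12002 gained regions more than 10000 bp from any native region had a median width of 323 bp, 52.1% A/T (SD 8.36) and 1.45 AP-1 matches per kb. The 4804 within 1000 bp of a native region had a median width of 541 bp, 49.2% A/T (SD 8.30) and 0.540 AP-1 matches per kb. Promoters held 1.0% (0.830 to 1.19) of the distant and 2.52% (2.09 to 3.0) of the near ones, and the Satb1 consensus stood in 14.4% (13.8 to 15.1) and 10.9% (10.1 to 11.9). A full-length Satb1 peak was overlapped by 40 of the distant and 11 of the near regions, in both cases below placements.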
